A study of Mus musculus with 6 samples.

Results

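The lysyl oxidase family is the group of copper-dependent enzymes that start the crosslinking of collagen and elastin outside the cell. Its 5 mouse genes, Lox, Loxl1, Loxl2, Loxl3 and Loxl4, were found by symbol and are read by 10 of the 55681 probes on the arrays. They are 5 of the 37153 genes and unnamed features measured. Expression was measured in 3 kinds of cultured mouse cell, with 2 arrays for each. Muscle-derived stem cells (MDSC), the cells of hindlimb muscle that attached last in a serial plating procedure, came from 5 week old males, either wild-type (WT) or labelled Mstn null, the label for mice without a working gene for myostatin, a secreted protein that restrains muscle growth. Cells of both genotypes were expanded to passage 1, with isolations 1 and 2 of each genotype, and no cells were treated. The comparison cells were embryonic stem cells (ESC) of the established male mouse line W4, harvested at passages 12 and 15. The labels do not give the Mstn allele, the strain or how many animals went into an isolation, and both ESC arrays come from 1 line. ESC colonies are labelled feeder free, while the growth protocol describes culture on mouse embryonic fibroblasts, which were depleted by brief plating.

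Lysyl oxidases oxidise lysine side chains of collagen and elastin to reactive aldehydes, which then join neighbouring chains and make the fibre stiff and insoluble. Lox and Loxl1 are made as proenzymes whose propeptide is cleaved off outside the cell, whereas Loxl2, Loxl3 and Loxl4 carry scavenger receptor cysteine-rich domains in front of the catalytic domain. In muscle, fibroblasts and related stromal cells lay down the collagen network that these enzymes crosslink.

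Levels are log2 signals relative to the 75th percentile of the same array, so 0 is the signal that 75% of spots do not exceed. A probe's level can be compared between arrays but not with another probe's level. Between 53.3% and 64.6% of the 59305 non-control spots per array stood well above background and none was saturated. With 2 arrays per group, precision was limited. The 10 probes of the family were well above background on all 6 arrays. The WT arrays lay on a slide of their own and the other 4 arrays shared a slide, so effects of the slide and of the WT group cannot be told apart. The Mstn probe read -3.06 and -2.47 on the arrays labelled Mstn-null, well above background. On the WT arrays it read -4.90 and -6.71, not well above background. Its signal was thus higher under the label of mice without a working Mstn gene. The kind of allele is unstated, and the probe's position is missing from the sources used here. This signal therefore cannot decide whether the label is right, and every direction between the genotypes below rests on the labels.

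Mean levels of the lists of cell type markers differed between MDSC and ESC, except for the endothelial list, where they overlapped. The 12 fibroblast markers averaged 6.18 and 5.33 in WT, 6.18 and 6.35 in cells labelled Mstn-null, and 2.26 and 0.33 on the ESC arrays of passages 12 and 15. In log2 of their summed level they ranged from 10.60 to 11.23 in MDSC and from 5.76 to 6.94 in ESC; 12 of 12 were well above background on all arrays but the ESC array of passage 15, where Lum was not. The 7 macrophage markers averaged 0.29 and -1.09 in WT, 2.26 and 4.25 in cells labelled Mstn-null, and -4.14 and -3.28 in ESC. Their summed level was 3.29 to 4.26, 5.99 to 7.98 and 1.01 to 1.60 in these groups, and 7 of 7 were well above background on every MDSC array. The 10 myogenic markers averaged 1.32 and -0.87 in WT, -1.28 and -1.70 in cells labelled Mstn-null, and -3.26 and -3.06 in ESC. Their summed level was 4.58 to 6.95, 4.54 to 4.76 and 1.54 to 3.36. Of the defining genes of muscle progenitors, Myf5 was above background on no array, and Pax7 on 1 MDSC array, of WT, and 1 ESC array. The rest of the list, Myod1, Myog, Des, Cdh15, Itga7, Tnnt2, Acta1 and Mymk, was above background on every MDSC array. The smooth muscle list averaged 2.38 to 3.17 in MDSC and 0.27 and 1.30 in ESC, and the endothelial list -2.88 to -1.88 and -2.50 and -2.62. The pluripotency list averaged -4.28 to -3.95 in MDSC and 5.29 and 5.47 in ESC. The pluripotency genes Pou5f1, Zfp42 and Fgf4 were detected above background in ESC but on no MDSC array. Sox2 was above background on 1 WT array, and Esrrb, Dppa5a, Utf1 and Tdgf1 on every MDSC array, all at lower levels than in ESC. In such bulk RNA, fewer cells of a type and less RNA per cell cannot be told apart, and the part of cell makeup in the results below was not tested.

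**Figure D1:**
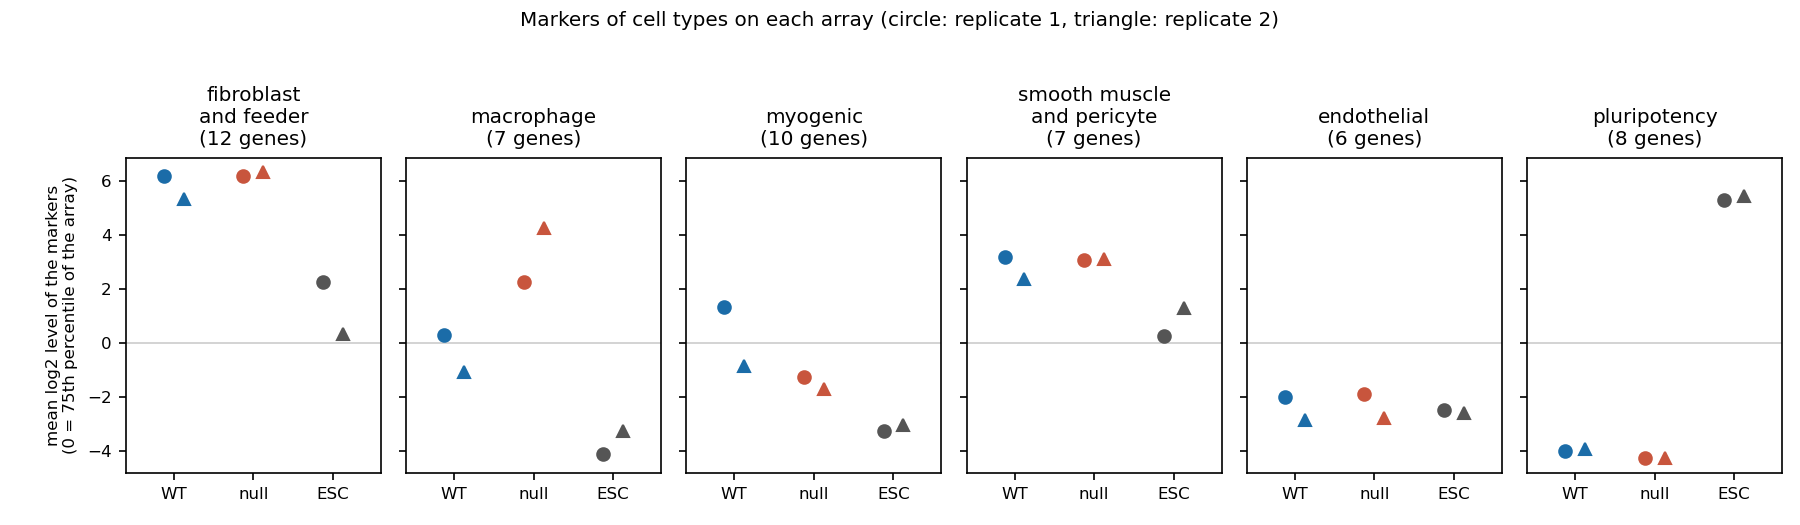
Mean log2 level of each list of cell type markers on each of the 6 arrays, relative to the array's 75th percentile. The fibroblast list lies between 5.33 and 6.35 on the MDSC arrays and at 2.26 and 0.33 on the ESC arrays, and the macrophage list spreads from -1.09 to 4.25 among the MDSC arrays.

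All 5 family genes had higher signals on every MDSC array than on either ESC array, for both genotypes. Past the threshold (limma, adjusted p under 0.05 over 25055 genes) were 4 of 5 in WT MDSC and 5 of 5 in MDSC labelled Mstn-null. Of all genes tested, 27.1% were called higher and 25.9% lower in WT MDSC than in ESC, and 23.3% and 30.8% in MDSC labelled Mstn-null. The arrays did not overlap with MDSC higher for 41.4% and 37.1% of genes. Both comparisons use the same ESC arrays. Between the genotypes 0 of 5 members were called, as were 0% of all genes.

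**Figure D2:**
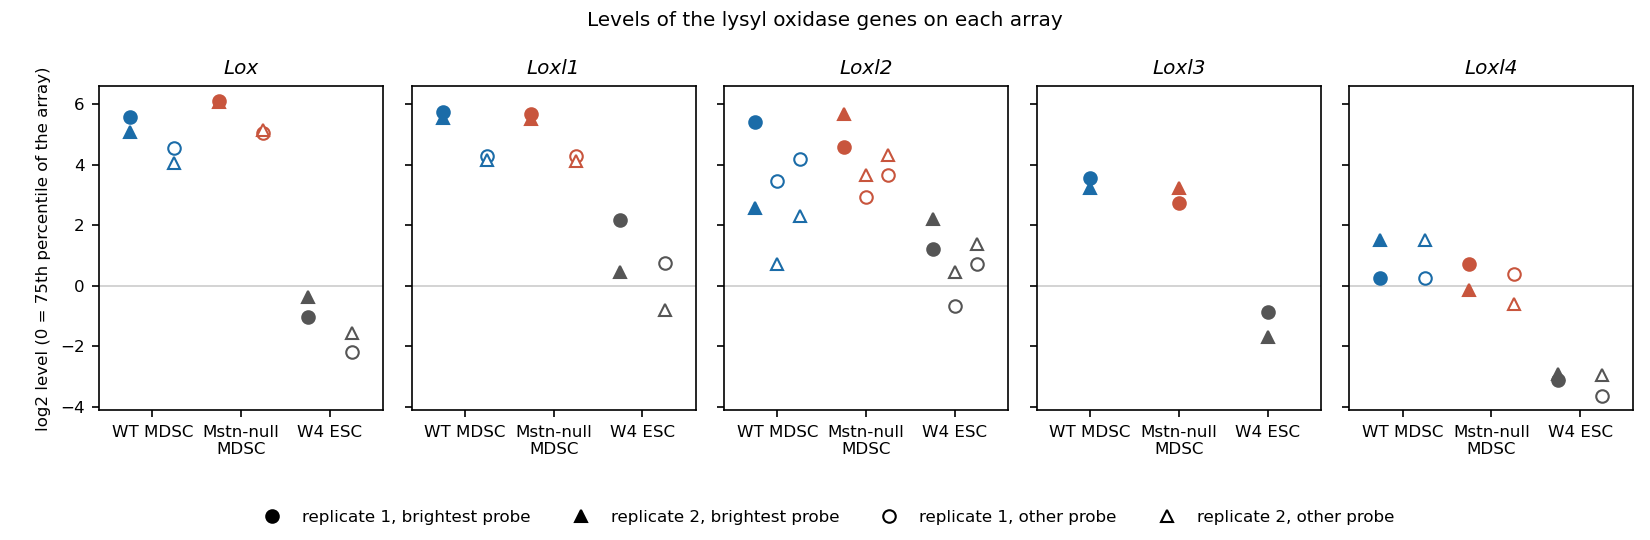
Log2 level of every probe of each family gene on each of the 6 arrays, relative to the array's 75th percentile. Filled points are the brightest probe of each gene and open points its other probes. Each probe, compared with itself, lies higher on the 4 MDSC arrays than on the 2 ESC arrays. By the brightest probe, the points of Loxl2 lie farthest apart within WT MDSC, at 5.41 and 2.56.

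Lox, the founding member, oxidises fibrillar collagens and elastin. It stood at 5.59 and 5.10 in WT MDSC, at 6.11 and 6.09 in MDSC labelled Mstn-null, and at -1.04 and -0.38 in ESC of passages 12 and 15. The ESC arrays were far below all others, and the arrays labelled Mstn-null were the highest. Lox was 66.7-fold higher in WT MDSC than in ESC, a log2 difference of 6.06 ± 0.30 (SE, n = 2 arrays each; limma, adjusted p = 4.29e-04). It was 112-fold higher in MDSC labelled Mstn-null, a difference of 6.81 ± 0.30 (limma, adjusted p = 2.95e-04). The second Lox probe gave differences of 6.19 and 6.98. Leaving out any 1 array kept the WT difference between 5.73 and 6.39 and the other between 6.48 and 7.14, past the threshold each time.

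Loxl1 binds elastin precursors and is needed for renewal of elastic fibres. Its levels were 5.74 and 5.54 in WT MDSC, 5.67 and 5.52 in MDSC labelled Mstn-null, and 2.19 and 0.47 in ESC. The 4 MDSC arrays lay between 5.52 and 5.74, while ESC of passage 12 exceeded ESC of passage 15 by 1.72, or 3.29-fold, a gap that 4.27% of tested genes exceeded. ESC of passage 12 also had the higher mean of fibroblast markers, although Postn, Fbln2 and Twist2 of that list were higher at passage 15. The part of cell makeup in the Loxl1 gap was not tested. The difference from ESC was 4.31 ± 0.57 in WT MDSC (SE, n = 2 each; 19.8-fold; limma, adjusted p = 0.00399). In MDSC labelled Mstn-null it was 4.27 ± 0.57 (19.2-fold; limma, adjusted p = 0.00380). Against the passage 15 array alone these differences were 5.16 and 5.12, and against the passage 12 array alone 3.45 and 3.41. The second Loxl1 probe gave 4.25 in both comparisons.

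Loxl2 crosslinks collagen IV of basement membranes besides fibrillar collagens, and it has been studied as a partner of the repressor Snai1. It stood at 5.41 and 2.56 in WT MDSC, at 4.59 and 5.70 in MDSC labelled Mstn-null, and at 1.21 and 2.22 in ESC. The second WT isolation thus lay only just above the higher ESC array, and 7.19-fold below the first WT isolation. Only 1.04% of tested genes had a larger gap between the WT arrays. All 3 Loxl2 probes placed the second WT isolation lowest of the MDSC arrays, at 0.72 and 2.30 by the other 2, against 3.47 and 4.20 in the first.

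In WT MDSC the Loxl2 difference from ESC was 2.27 ± 1.03 (SE, n = 2 each), with a 95% interval from -0.37 to 4.90, and it was not called (limma, adjusted p = 0.117). Without the second WT isolation it was 3.69 (limma, adjusted p = 0.0205), and without the first 0.85 (limma, adjusted p = 0.366). The probe A_55_P2131348 on its own passed at 2.19 (limma over 33714 probes, adjusted p = 0.0446); the other 2 probes gave 2.27 and 2.19 and did not. In MDSC labelled Mstn-null the difference was 3.43 ± 1.03 (10.8-fold; limma, adjusted p = 0.0398). That call ended without either array labelled Mstn-null, at 3.99 and 2.88 without isolations 1 and 2 (limma, adjusted p = 0.0778 and 0.161). It also ended without either ESC array, at 2.93 without passage 12 and 3.94 without passage 15 (limma, adjusted p = 0.158 and 0.0909). Whether the difference from ESC differs between the genotypes is the genotype comparison itself, given below.

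Loxl3 crosslinks collagens and is known from mice for a role in the palate, the spine and muscle anchorage. It was measured by 1 probe, at 3.57 and 3.23 in WT MDSC, 2.74 and 3.24 in MDSC labelled Mstn-null, and -0.86 and -1.70 in ESC. The MDSC arrays overlapped between genotypes and stood well clear of ESC. Its difference from ESC was 4.68 ± 0.36 in WT MDSC (SE, n = 2 each; 25.7-fold; limma, adjusted p = 0.00107). In MDSC labelled Mstn-null it was 4.27 ± 0.36 (19.3-fold; limma, adjusted p = 0.00121). Leaving out 1 array at a time gave 4.27 to 5.10 and 3.85 to 4.68.

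Loxl4 is the remaining member with scavenger receptor domains, and it acts on fibrillar collagens. Its levels were 0.27 and 1.51 in WT MDSC, 0.74 and -0.14 in MDSC labelled Mstn-null, and -3.11 and -2.92 in ESC. The second WT isolation, lowest of the MDSC arrays for Loxl2, was here the highest. The difference from ESC was 3.91 ± 0.50 in WT MDSC (SE, n = 2 each; limma, adjusted p = 0.00378). It was 3.31 ± 0.50 in MDSC labelled Mstn-null (limma, adjusted p = 0.00546). The second Loxl4 probe gave 4.19 and 3.19. With another background correction, normexp, the differences were smaller, at 3.02 and 2.48, and both were still called (limma, adjusted p = 0.00454 and 0.00780).

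Loxl4 was also the 1 member of the 5 found in the promoter table used, so its promoter is shown to give the sequence in front of a gene that differed between the cell kinds. These are the 250 bases before its start in RefSeq's annotation of GRCm38.p6, chr19:42612807-42613056, minus strand, 5′ to 3′. Capitals mark matches to CAGAC, the SMAD box through which TGF-beta signals act, and to GGGCGG, the GC box.
Loxl4: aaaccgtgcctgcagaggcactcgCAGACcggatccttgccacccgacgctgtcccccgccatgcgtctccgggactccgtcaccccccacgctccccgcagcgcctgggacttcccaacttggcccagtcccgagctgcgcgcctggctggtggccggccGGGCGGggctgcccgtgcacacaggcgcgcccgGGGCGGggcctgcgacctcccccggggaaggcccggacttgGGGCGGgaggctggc
The window holds 1 match to CAGAC, 226 bases before the start, and 3 to GGGCGG, 89, 56 and 15 bases before it, counted to the first base of each match. Both strands were searched in 32851 windows of this length, of which 42.2% held CAGAC and 32.7% held GGGCGG. It also holds GCGTG, a core of hypoxia response elements, 1 time on the reverse strand, as 28.2% of windows did in either direction. The other hypoxia core searched, ACGTG, was not in this window, while 16.6% of windows held it. The E-box that Snai1 and related factors read, searched as CANNTG, was not there either, while 66.2% of windows held it. The same was true of the AP-1 site, searched as TGANTCA and held by 6.75% of windows, and of the TATA box, searched as TATAAA and held by 12.4%. Its GC content was 76%, against a median of 52.4%, and 96.7% of windows had less. A match is a string of letters and shows no binding.

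**Figure D3:**
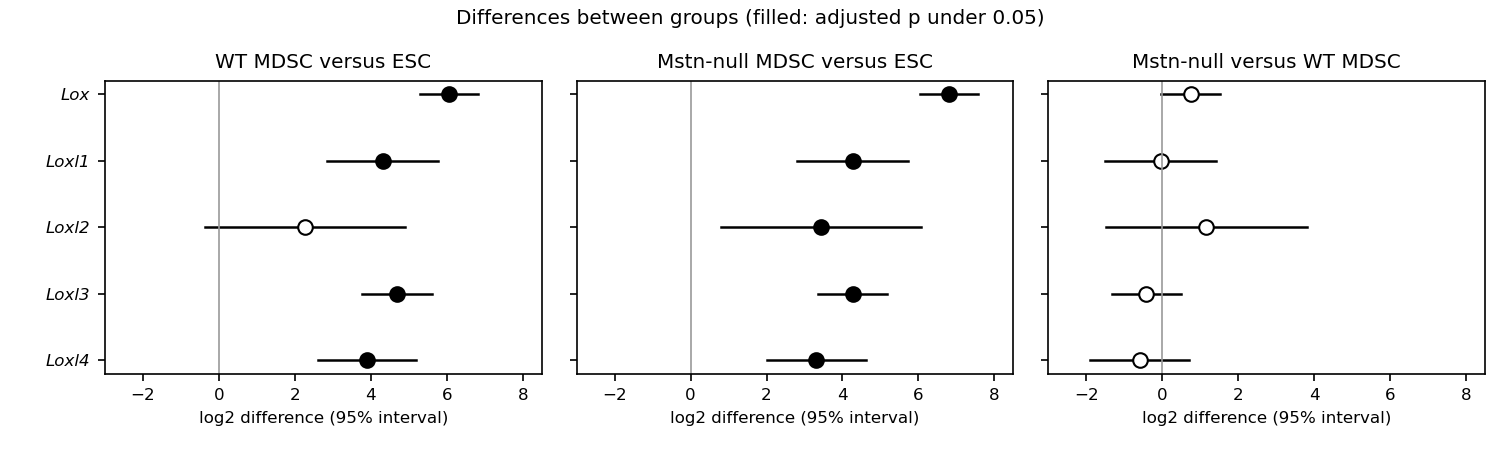
Log2 difference of each family gene in the 3 comparisons, with 95% intervals from the limma fit (n = 2 arrays per group). The intervals of both comparisons with ESC lie above 0 except for Loxl2 in WT MDSC, which runs from -0.37 to 4.90, and all 5 intervals between the genotypes include 0.

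Between MDSC labelled Mstn-null and WT MDSC, Lox came nearest to a difference. Its levels of 6.11 and 6.09 against 5.59 and 5.10 did not overlap, and the difference was 0.75 ± 0.30 (SE, n = 2 each; 1.69-fold), with a 95% interval from -0.02 to 1.52 (limma, adjusted p = 0.350). The arrays of 16.6% of tested genes were likewise higher without overlap. For Loxl1 the difference was -0.04 with an interval from -1.50 to 1.42, and quantile normalization, median centring and leaving out 1 array turned its sign. Loxl2 differed by 1.16 with an interval from -1.47 to 3.80, which became -0.26 without the second WT isolation and 2.59 without the first. Loxl3 and Loxl4 differed by -0.42 and -0.59, with intervals from -1.33 to 0.50 and from -1.89 to 0.70, and Loxl4 became 0.03 without the second WT isolation. For these 4 genes the arrays of the genotypes overlapped (limma, adjusted p = 0.983, 0.662, 0.652 and 0.650). The intervals of Loxl1 and Loxl2 leave room for changes larger than 1 on the log2 scale in either direction, and those of Loxl3 and Loxl4 for a fall of that size.

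No gene of the series was called between the genotypes (limma, smallest adjusted p = 0.0548), while 3671 of 25055 genes, or 14.7%, had an unadjusted p under 0.05 and none of the family did. With quantile normalization 25 genes were called, none of the family, and with a variance trend and robust fit 0. Fitted by probe, 8 of 33714 probes were called, none of the family. The exact permutation test of 2 arrays against 2 cannot give a p below 0.333. The order of group means was thus labelled Mstn-null, WT, ESC for Lox and Loxl2, and WT, labelled Mstn-null, ESC for Loxl1, Loxl3 and Loxl4, with the first 2 groups in each order not separated by the test, and for Loxl2 not the last 2 either.

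**Figure D4:**
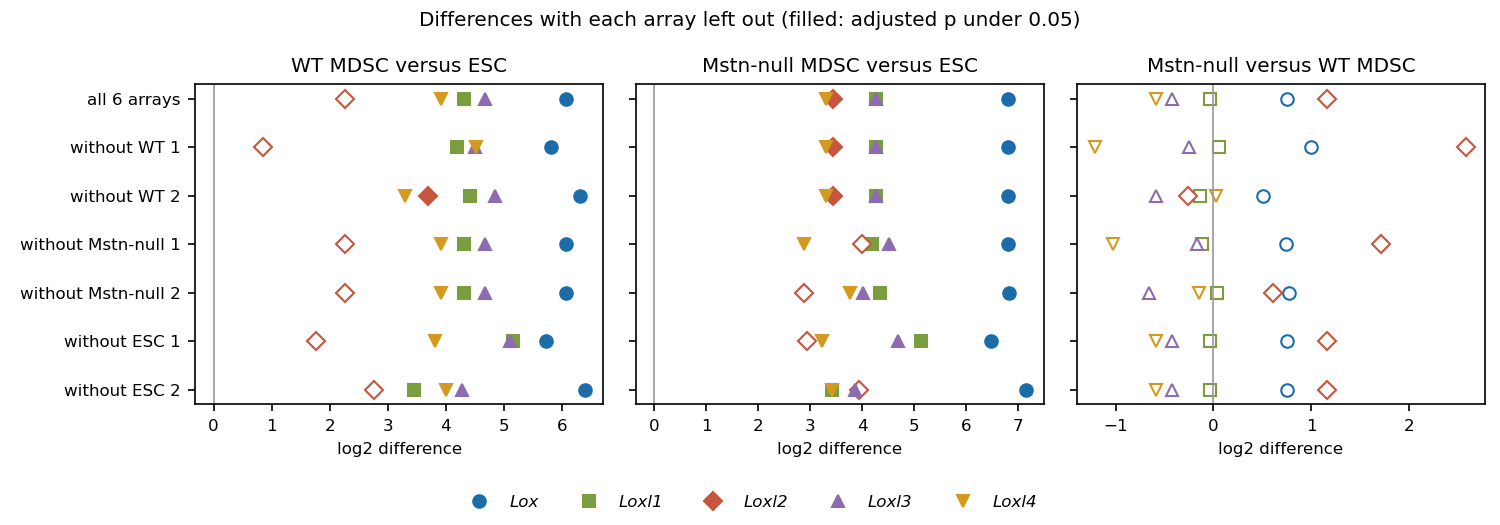
Log2 difference of each family gene in each comparison with all arrays and with each of the 6 arrays left out in turn. For Loxl2 the difference between WT MDSC and ESC moves from 0.85 to 3.69 and that between the genotypes from -0.26 to 2.59, while Lox stays between 5.73 and 6.39 against ESC in WT MDSC.

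The members did not spread alike among the MDSC arrays. Loxl2 ran, from high to low, second isolation labelled Mstn-null, first WT, first labelled Mstn-null, second WT, and Loxl4 ran in exactly the reverse order. Over the 4 MDSC arrays, with each gene centred on its own mean there, the profiles of Loxl2 and Loxl4 were the farthest apart of the 10 pairs, with a root mean square difference of 1.83 on the log2 scale. Loxl1 and Loxl3 were the nearest, at 0.30. Over all 6 arrays Loxl1 and Loxl3 were again nearest, at 0.37, and Lox and Loxl2 farthest, at 1.86. In ESC, Loxl1 and Loxl3 were higher at passage 12, by 1.72 and 0.83, whereas Lox, Loxl2 and Loxl4 were higher at passage 15, by 0.66, 1.01 and 0.18.

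The gap between isolations was also wide for Loxl4, at 2.35-fold in WT MDSC and 1.84-fold in MDSC labelled Mstn-null, gaps that 7.34% and 8.44% of tested genes exceeded. For Loxl2 in MDSC labelled Mstn-null it was 2.16-fold, which 5.46% exceeded. Lox differed by 1.41-fold and 1.02-fold between isolations. The second WT isolation, low in Loxl2, had the lowest fibroblast marker mean of the MDSC arrays, at 5.33, and the lowest macrophage marker mean, at -1.09. Within the fibroblast list, however, S100a4 and Twist2 were highest in this isolation, at 9.13 and 3.30, and Pdgfra was not the lowest. Its means of the smooth muscle and endothelial lists were also the lowest, at 2.38 and -2.88. Those of the myogenic and pluripotency lists were not. In the smooth muscle list, Cspg4 and Mcam were highest in this isolation, at 2.51 and 3.61, and Rgs5 was not the lowest. The endothelial mean was close to the -2.79 of the second isolation labelled Mstn-null. Pecam1, Cdh5 and Tek of that list were not lowest in the second WT isolation, and Emcn was well above background on no array. The part of any of these lists in the level of Loxl2 was not tested.

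For each member, the 3 named genes whose centred profile over the 6 arrays was nearest were taken from 14949 named genes, as a description. Nearest to Lox were Igfbp7, a secreted binding protein, Cygb, a haem protein of stromal cells, and Hp, haptoglobin, with root mean square differences of 0.28, 0.30 and 0.32. Loxl1 lay nearest to Ltbp3, a latent TGF-beta binding protein, at 0.08, then to Sspn, a membrane protein of the dystrophin complex, at 0.10, and to Cd248, a stromal surface protein, at 0.13. For Loxl2 they were Ccn4, a matricellular protein, at 0.34, Ctla2a at 0.35 and Sdk1 at 0.36. Those of Loxl3 were Cpq at 0.11, Dusp23 at 0.18 and Tbx15, a transcription factor, at 0.19. Loxl4 was nearest to Glt8d2 at 0.23, with Gata2 and Ampd3 both at 0.25; Glt8d2 was well above background on 4 arrays and Ampd3 on 5. By Pearson correlation over the same 6 arrays, Ltbp3 and Sspn were again among the 3 genes nearest to Loxl1, and none of the 3 recurred for the other members.

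Of 10 substrate genes of the enzymes, 8 were called higher and 0 lower in both genotypes, with median differences of 4.04 in WT MDSC and 4.51 in MDSC labelled Mstn-null, beside 0.03 and -0.12 over all genes tested. Without the second isolation labelled Mstn-null, 4 of 10 were called higher in that group. Col1a1, Col1a2 and Col3a1 of this list are also in the list of fibroblast markers, so the 2 lists are not separate observations. Col1a1, the main chain of collagen I, was 4.06 ± 0.22 higher in WT MDSC and 4.27 ± 0.22 higher in MDSC labelled Mstn-null (limma, adjusted p = 5.29e-04 and 4.29e-04). The largest rises in WT MDSC were Col11a1, a minor fibrillar collagen, at 5.38 ± 0.96, and Col3a1, the chain of collagen III, at 4.99 ± 1.25 (limma, adjusted p = 0.00900 and 0.0247). Col3a1 missed the threshold without the first WT isolation, at 3.93, and without ESC of passage 15, at 3.35 (limma, adjusted p = 0.105 and 0.0666). In MDSC labelled Mstn-null these 2 rose by 4.75 and 6.24, and both missed it without the second such isolation, at 4.17 and 5.96 (limma, adjusted p = 0.0643 and 0.0614).

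Eln, the gene of elastin, the other classic substrate, was not called. It stood at -3.69 and -3.47 in WT MDSC, -2.63 and -3.09 in MDSC labelled Mstn-null, and -3.08 and -4.01 in ESC. Each MDSC group overlapped ESC, while both arrays labelled Mstn-null lay above both WT arrays. Its differences from ESC were -0.03 ± 0.36 and 0.68 ± 0.36 (limma, adjusted p = 0.944 and 0.169). The first became 0.02 and 0.03 under quantile normalization and median centring and 0.43 without ESC of passage 12. The second passed the threshold under those scalings, at 0.86 and 0.91, and without ESC of passage 12, at 1.15 (limma, adjusted p = 0.0476, 0.0481 and 0.0403).

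Of the genes for proteins that activate or hold the enzymes, 11 passed the filter, among them Postn, which is also in the fibroblast list. In WT MDSC 9 were called higher and 0 lower (median 3.21), and in MDSC labelled Mstn-null 8 and 0 (median 3.43). Bmp1, the protease that cleaves the propeptide of Lox, stood at 5.71 and 4.76 in WT MDSC, 5.59 and 5.63 in MDSC labelled Mstn-null, and 2.13 and 2.24 in ESC. Its differences were 3.05 ± 0.34 and 3.43 ± 0.34 (limma, adjusted p = 0.00249 and 0.00178). Fn1, fibronectin, which holds Lox near its protease, rose by 2.15 and 2.80, and Efemp2, the fibulin that ties Lox to elastic fibres, by 4.04 and 4.46. By size the largest were Fmod, a collagen-binding proteoglycan that binds Lox, at 7.53 ± 0.67, and Adamts2, a procollagen protease, at 5.72 ± 0.92 (limma, adjusted p = 0.00152 and 0.00680), and in MDSC labelled Mstn-null they rose by 9.41 and 6.91. Fmod was well above background on 1 of the ESC arrays.

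Of the 10 elastic fibre scaffold genes, 7 were called higher and 1 lower in both genotypes (medians 3.56 and 3.40). Fbln5, the fibulin that binds Loxl1, rose by 5.79 ± 0.44 and 6.00 ± 0.44 (limma, adjusted p = 0.00107 and 9.19e-04), and Fbn1, the main fibrillin, by 5.11 and 5.59. Ltbp4, a latent TGF-beta binding protein of elastic fibres, was lower, at -2.52 and -3.06 (limma, adjusted p = 0.00107 and 6.60e-04).

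All 11 tested genes of lysine hydroxylation and collagen folding were called higher in both genotypes, with medians of 2.59 and 2.62. Plod2, which hydroxylates the telopeptide lysines that lysyl oxidases then oxidise, was 2.01 ± 0.47 and 2.53 ± 0.47 higher (limma, adjusted p = 0.0200 and 0.00962). Its call in WT MDSC ended without the first WT isolation, at 1.42, and without ESC of passage 12 or 15, at 1.77 and 2.24 (limma, adjusted p = 0.0556, 0.0883 and 0.0572). In MDSC labelled Mstn-null it ended without the second such isolation, at 2.23 (limma, adjusted p = 0.0541). P4ha2, a prolyl hydroxylase subunit, rose by 3.76 and 4.40, and Serpinh1, the collagen chaperone, by 3.14 and 3.03.

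Copper handling genes were nearer to the background of all genes. Of 12, 2 were called higher and 1 lower in WT MDSC (median 0.41) and 4 higher and 2 lower in MDSC labelled Mstn-null (median 0.52). With 1 array left out these counts ran down to 1 higher and 0 lower in either genotype. Under median centring they were 3 higher and 0 lower, and 6 higher and 0 lower. Steap2, a metalloreductase, rose by 2.93 ± 0.26 and 2.94 ± 0.26 (limma, adjusted p = 0.00153 and 0.00141); the first was 1.89 as a mean over its probes. Atp7a, the pump that loads copper onto secreted enzymes such as Lox, differed by 0.68 ± 0.25 and 0.88 ± 0.25 (limma, adjusted p = 0.0728 and 0.0360). Only the second was called, and leaving out any array but the first isolation labelled Mstn-null ended that call, with values from 0.57 to 0.96 (limma, adjusted p from 0.0603 to 0.155). So did dropping the filter on dim probes or fitting only the groups compared, both at 0.88 (limma, adjusted p = 0.0563 and 0.0565). Cox17, a chaperone that brings copper to the respiratory chain, was called lower at -1.15 and -0.95. The first call ended under 5 of 15 alternatives and the second under 13 of 16. Leaving out either WT array ended the first, at -1.18 and -1.13 (limma, adjusted p = 0.0757 and 0.0759), and leaving out either array labelled Mstn-null the second, at -0.81 and -1.09 (limma, adjusted p = 0.154 and 0.0920). Leaving out either WT array or ESC of passage 15 also ended the second, at -0.95, -0.95 and -0.61 (limma, adjusted p = 0.0644, 0.0631 and 0.0859). With normexp background correction the values were -0.43 and -0.28 (limma, adjusted p = 0.0862 and 0.218).

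Among 14 upstream regulators, 8 were called higher and 1 lower in WT MDSC and 8 and 0 in MDSC labelled Mstn-null (medians 1.23 and 1.32). Tgfb3 and Tgfbr2, a ligand and a receptor of the TGF-beta pathway, rose by 3.95 and 3.74 in WT MDSC and by 3.98 and 4.63 in MDSC labelled Mstn-null. Smad3, which carries that signal to the nucleus, rose by 2.19 ± 0.26 and 1.92 ± 0.26 (limma, adjusted p = 0.00303 and 0.00400). Hif1a, the oxygen-regulated factor that induces Lox, rose by 2.03 and 2.27, a rise that in WT MDSC missed the threshold without ESC of passage 12, at 1.85 (limma, adjusted p = 0.0518). Irf1, an interferon-induced factor, was lower in WT MDSC, by -1.11, a call that ended without ESC of passage 12 or 15, at -1.09 and -1.13 (limma, adjusted p = 0.0541 and 0.0537), and in MDSC labelled Mstn-null it was not called, at -0.35. As a mean over its probes it was called there, at -1.01 (limma, adjusted p = 0.0302). Without ESC of passage 12, 5 of the 14 were called higher in WT MDSC.

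The 8 Snail partners and cadherins split into 6 called higher and 2 lower in both genotypes. Snai1, the partner of Loxl2, rose by 3.30 and 3.21, and Snai2 by 3.91 and 3.56. The 2 lower genes were Cdh1, E-cadherin, and Epcam, both genes of epithelial adhesion. Epcam was well above background on no MDSC array and was at least 149-fold lower in WT MDSC and at least 141-fold lower in MDSC labelled Mstn-null (limma, adjusted p = 9.92e-05 and 9.07e-05). Cdh1 was at least 443-fold lower in WT MDSC; its level was -2.37 on the array of the second isolation labelled Mstn-null, where it was well above background, and -5.73 on that of the first, where it was not, against 3.95 and 4.25 in ESC. The difference of those means was -8.15, and -6.47 with the detected array alone.

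Other crosslinking enzymes and amine oxidases gave 3 called higher and 2 lower of 7 tested in both genotypes. Aoc3, a copper amine oxidase of vascular and fat cells, rose by 5.93 ± 0.42 and 6.59 ± 0.42 (limma, adjusted p = 9.11e-04 and 6.86e-04). Maob, a flavin amine oxidase, rose by 2.70 (1.76 with normexp) and 3.20, and missed the threshold without ESC of passage 12, at 2.33 and 2.83 (limma, adjusted p = 0.0812 and 0.0525), and in MDSC labelled Mstn-null also without the second isolation, at 2.88 (limma, adjusted p = 0.0564). Tgm1, a transglutaminase of epithelia, was well above background on 1 WT array, and its difference from ESC was -5.18 over both WT arrays and -3.41 with normexp background correction. It was at least 41.4-fold lower in MDSC labelled Mstn-null. Aoc2, a retinal amine oxidase, was called lower at -0.97 and -0.89. The first call ended without either WT isolation, at -0.92 and -1.03 (limma, adjusted p = 0.0847 and 0.0587). The second ended without either isolation labelled Mstn-null or without ESC of passage 12, at -0.90, -0.89 and -0.63 (limma, adjusted p = 0.0995, 0.110 and 0.0522). None of the genes of these lists was called between the genotypes.

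**Figure D5:**
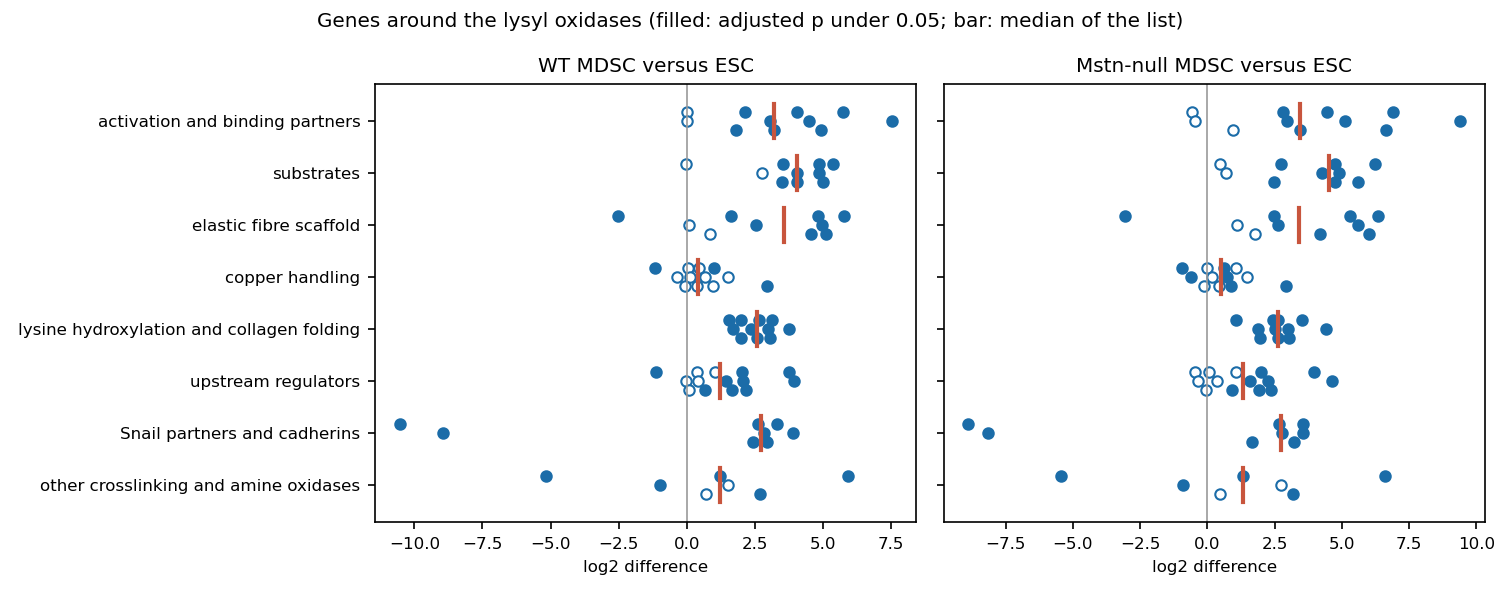
Log2 difference from ESC of each tested gene of the 8 pathway lists, with the list median, in WT MDSC and in MDSC labelled Mstn-null; genes with only a bound are drawn at their fitted value. The collagen folding list lies wholly above 0, and the copper list, with medians of 0.41 and 0.52, lies nearest to 0.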

How the data were processed

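The arrays were 1-colour Agilent mouse arrays, on which 0.5 µg of total RNA per culture was read, per the labels. A deposited file holds the spot intensities of 1 array, background corrected but not scaled between arrays, per the file headers. The authors' software was Agilent Feature Extraction; the headers name version 10.7.1.1 and the submitters' processing notes version 9.1. Other deposited columns, flags for outlier, saturated and well-above-background spots, were used as filters.

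Processed signals were put on the log2 scale relative to the 75th percentile of their array, outlier spots were left out (100 to 122 per array) and spots of a probe averaged. Of 55681 probes, 26413 were named by matching accessions to a RefSeq table of GRCm38.p6. A gene's probe was the one with the highest mean, and genes well above background on both arrays of a group were tested. The 3 group means were fitted with limma 3.58.1 in R 4.3.3 (lmFit, eBayes, two-sided; 3 residual and 2.02 prior degrees of freedom), with Benjamini-Hochberg adjustment over 25055 genes and a threshold of 0.05. Where a gene was well above background on no array of a side, the fold is printed as a lower bound, with the dim mean taken, per array, as the higher of the lowest signal well above background and its own. The fit was also run on simulated data of independent normal values, which did not try the background filter or the bounds.

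Members and gene lists (14, with 136 of 137 entries on a probe) were chosen with earlier results of these data known. Named were, per pathway list, the 2 largest differences in each direction past the threshold in WT MDSC versus ESC, with Atp7b left to the closing section; Bmp1, Fn1, Efemp2, Col1a1, Eln, Plod2, Atp7a, Smad3 and Hif1a were added for their roles with values seen. Isolation numbers were not used to pair the genotypes. Deviations of same-numbered isolations correlated at -0.397 across 25055 genes. With so few isolations, that value cannot show whether they were paired. Promoter sequences are RefSeq's. Alternatives tried are in the closing section.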

Additional observations from a re-analysis of the deposited data

How the results depend on the processing

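The alternatives were 2 other scalings (quantile, median), normexp background correction (offset 50, median signal), dim genes all kept or all removed, outlier spots kept, a mean over probes, fits of only the groups compared or of 1 slide, a robust variance trend, each array left out (a lone array is then assumed to vary like the others) and a replicate block; each probe on its own and a crossed block were added after seeing the data. Lox, Loxl1, Loxl3 and Loxl4 kept direction and call against ESC under all of these that apply. Loxl2 in WT MDSC ranged from 0.85 to 3.69 with 1 array left out and passed by probe A_55_P2131348 alone, at 2.19. In MDSC labelled Mstn-null its call ended with no filter (3.43, limma, adjusted p = 0.0566) and ranged from 2.88 to 3.99 with 1 array left out; the cause of either was not tested. Calls of members ranged from 4 to 5 of 5 against ESC. Between the genotypes 0 were called throughout, and 3 signs turned: Loxl1 under quantile normalization (0.06) and median centring (0.12) and from -0.14 to 0.06 with 1 array left out, Loxl2 from -0.26 to 2.59 and Loxl4 from -1.21 to 0.03. Genes called in MDSC labelled Mstn-null versus ESC, 13572, ranged from 7972 to 12910 with 1 array left out, the low value without the second such isolation. Genes called between the genotypes went from 0 to 25 under quantile normalization (11 higher, 14 lower). Median centring moved the median of all genes in MDSC labelled Mstn-null versus ESC from -0.12 to 0.10, and the split from 5849 higher and 7723 lower to 6252 and 5471. The number of arrays limits precision, and dim genes have only bounds.

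The main fit did not pair the MDSC arrays by number. With isolation number as a replicate block over these 4 arrays, 0 genes were called, and the block changed no call. The differences were 0.75 for Lox, -0.04 for Loxl1, 1.16 for Loxl2, -0.42 for Loxl3 and -0.59 for Loxl4 (limma, adjusted p from 0.478 to 0.956). Crossed numbers also gave 0 genes called. Among named list genes, Eln in WT MDSC versus ESC turned from -0.03 to 0.02 and 0.03 under quantile normalization and median centring and ranged from -0.50 to 0.43 with 1 array left out, and Atp7b in MDSC labelled Mstn-null versus ESC, at 0.16, ranged from -0.13 to 0.45. Atp7b in WT MDSC versus ESC, at 0.99 (limma, adjusted p = 0.0221), lost its call without either WT or either ESC array. Cox17 and Aoc2 lost their calls against ESC under quantile normalization, Aoc2 at -0.75 and -0.51. Over the list genes that are named, in the comparisons with ESC, 923 alternatives kept direction and call, 52 lost the call, 4 gained it and 5 turned the sign.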

Other observations

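Col2a1, the collagen of cartilage, was the substrate gene with the widest spread among the MDSC arrays. It read 1.40 and 4.78 in the WT isolations and 2.22 and -0.66 in those labelled Mstn-null. In ESC it read -0.32 and 0.95, below both WT arrays, and only the arrays labelled Mstn-null overlapped ESC. Its order among the MDSC arrays was that of Loxl4, and Pcolce2, an enhancer of procollagen processing, was likewise highest in the second WT isolation, at 2.90, and lowest in the second labelled Mstn-null, at 0.12. Postn, the matricellular protein periostin, followed Loxl2 in being lowest in the second WT isolation, at 2.83 against 5.63, 5.72 and 6.16 on the other MDSC arrays, and Tgm2, a transglutaminase, stood at 0.68 there against 3.59, 2.53 and 4.23. These genes were picked after their values were seen, and no test was made of the likeness.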
